A study of Mus musculus with 4 samples.

Results

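Inflammasomes are protein complexes of the cytosol that sense microbial products or cell damage. A sensor of the NLR or AIM2 type recruits, often through the adaptor ASC, the protease caspase-1, which matures the cytokines interleukin-1 beta and interleukin-18 and cleaves gasdermin D into a pore that can kill the cell. They are best known from macrophages and other myeloid cells. The genes described here are 10 of the 23418 gene symbols in the count table, taken by name: the sensors Nlrp1a, Nlrp1b, Nlrp3, Nlrc4, Naip5 and Aim2, the adaptor gene Pycard (ASC), the caspases Casp1 and Casp4, and the pore gene Gsdmd. Nlrp1a was picked by its higher level in the very comparison reported here, so its difference is given as a description with no test. The other 9 were listed by function.

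RNA was sequenced from B cells of mouse cervical lymph nodes, with 2 libraries labelled BL/10, the control strain, and 2 labelled NOD.B10. NOD.B10 mice are commonly NOD mice with the major histocompatibility region of B10 mice and are studied for Sjögren-like autoimmunity, so the strains differ over much of the genome. Both groups carry the same tissue and cell type label, and the sources used here give no age, sex, treatment or sort gate. No label tells whether replicates came from separate mice, so the p-values measure a spread that may be technical. The libraries held 29372751 and 26150794 reads counted to genes for BL/10 replicates 1 and 2, and 19328803 and 25375678 for NOD.B10 replicates 1 and 2. Levels are in CPM, reads per 1000000 counted reads after scaling between libraries, and a gene is called where its adjusted p is below 0.05.

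The label of the cells was checked against marker genes. The 8 B cell markers summed to 7505 and 7830 CPM in BL/10 and to 8482 and 8968 CPM in NOD.B10. Of these 8, 1 was called, against 15.2% of all genes tested. It was Fcer2a, higher at 1202 and 1338 CPM in NOD.B10, against 790 and 924 CPM in BL/10. Without a call, Pax5 and Cr2 were higher and Cd79b lower in both NOD.B10 libraries. The 10 T cell markers summed to 335 and 390 CPM in BL/10 but to 9.53 and 5.17 CPM in NOD.B10. All 10 were called lower, against 8.63% of all genes tested. Of the markers of macrophages and monocytes, 3 of 10 tested were called lower (Apoe, Ccr2 and Csf1r), against 8.63% of all genes tested. None of the 12 was at 0 in a whole group, and they summed to 136 and 139 CPM against 64.6 and 48.2 CPM. Apoe carried most of that difference: without it the sums were 54.6 and 58.2 CPM against 47.9 and 30.6 CPM, and Adgre1 (7.23 and 5.12 against 10.6 and 8.69 CPM) had the opposite sign without a call. The 7 neutrophil markers counted summed to 4.59 and 9.03 CPM in BL/10, against 2.75 and 1.41 CPM in NOD.B10, where S100a8 and S100a9 had 0 reads in both libraries. Camp, another of them, had the opposite sign (0.236 and 0.232 against 0.518 and 0.391 CPM), and Ngp overlapped between the strains. Of the dendritic cell markers, 3 of 7 tested were called lower, against 8.63% of all genes tested. The list summed to 234 and 218 CPM against 186 and 158 CPM. Most of that sum was Ccr7, which was not called and which B and T cells also express. Without it the sums were 20.3 and 36.2 CPM against 17.3 and 16.3 CPM, and Zbtb46 (1.59 and 3.29 against 4.92 and 4.78 CPM) had the opposite sign without a call. Cd3d, Cd3e, Cd3g, Cd8a, Cd8b1, Themis, Cd28, Ccr2, Itgax and Siglech passed the filter on low counts only through BL/10. That is the group where they are high, so the filter and the test are not independent. Their calls as lower are given as a description. In bulk RNA, fewer cells of a type and less RNA per cell cannot be told apart. The marker sums differ between the strains, and their part in the differences that follow was not tested.

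Nlrp1a and Nlrp1b are neighbouring paralogs on the minus strand of chromosome 11. Their proteins are sensors that are held inactive in part by the dipeptidyl peptidase DPP9, and Nlrp1b is known as the sensor of anthrax lethal factor. GENCODE vM21 on mm10 places Nlrp1a at chr11:71092236-71144704 and Nlrp1b at chr11:71153102-71230733. The 250 bases before each gene start are shown because the pair had opposite strain differences while these stretches are close in sequence. RefSeq (GRCm38.p6) gives chr11:71144705-71144954 for Nlrp1a and chr11:71230734-71230983 for Nlrp1b. Capitals mark the bases that differ between them or lack a partner inside the alignment, and each sequence is written 5′ to 3′ along the minus strand.
Nlrp1a upstream: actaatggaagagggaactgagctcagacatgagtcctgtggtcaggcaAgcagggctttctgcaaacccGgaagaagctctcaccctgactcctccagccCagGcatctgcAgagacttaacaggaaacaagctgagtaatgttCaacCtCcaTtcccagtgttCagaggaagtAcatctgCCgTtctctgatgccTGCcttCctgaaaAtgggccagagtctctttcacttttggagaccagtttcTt
Nlrp1b upstream: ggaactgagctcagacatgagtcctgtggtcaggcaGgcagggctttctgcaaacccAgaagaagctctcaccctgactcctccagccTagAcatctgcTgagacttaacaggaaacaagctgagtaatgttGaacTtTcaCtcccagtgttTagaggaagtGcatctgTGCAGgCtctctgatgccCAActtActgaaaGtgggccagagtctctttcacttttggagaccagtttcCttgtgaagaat
Of 237 aligned base pairs, 217 were identical (91.6%). Both stretches hold the letters GAGGAAGT, a core bound by the myeloid and B cell factor PU.1, starting 83 bases before the start of Nlrp1a and 96 bases before that of Nlrp1b. Both strands were searched in 12 RefSeq promoter windows, each the 250 bases before a start. These windows cover 9 of the 10 members and not Gsdmd. Of the 12, 4 held GAGGAAGT (Nlrp1a, Nlrp1b, Aim2 and Pycard), against 2.44% of 32851 RefSeq promoter windows of the same length. The 12 are not independent, as the Nlrp1a and Nlrp1b matches lie in the aligned pair and the Casp4 windows overlap each other. The motifs TTCNNNGAA (STAT), GAAANNGAA (interferon response) and TCACNCCAC (SREBP) were in 0 of the 12 windows and in 7.02%, 7.13% and 1.05% of all windows. A match is a description of the letters in the reference and not a bound site. The other annotated start of Nlrp1b, whose upstream stretch is chr11:71201457-71201706, did not align with that of Nlrp1a.

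Near-identical copies can share reads, so the transcripts were compared. Of the 3854 stretches of 50 bases in the transcript Nlrp1a-201, 76 (1.97%) also occurred in an Nlrp1b transcript. The longest shared run, 102 bases of coding sequence in exon 10 of 14 at chr11:71106006-71106107, is printed because reads inside it fit both genes equally.
Nlrp1a and Nlrp1b shared run: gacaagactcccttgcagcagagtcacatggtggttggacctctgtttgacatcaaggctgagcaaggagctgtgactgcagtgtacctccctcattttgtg
Outside such short runs the paralogs differ, and a read of 100 bases would be ambiguous at 3 of 3804 positions. The sources used here do not state how reads with several alignments were counted.

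Nlrp1a was almost silent in BL/10 and well expressed in NOD.B10, while Nlrp1b was low in BL/10 and close to absent in NOD.B10. Nlrp1a had 2 and 13 reads in BL/10 replicates 1 and 2 (0.0675 and 0.504 CPM) and 721 and 1080 reads in NOD.B10 replicates 1 and 2 (37.4 and 42.3 CPM). The groups lie far apart, and the BL/10 libraries differ from each other far more, in proportion, than the NOD.B10 libraries do. The means and SDs (n = 2) were 0.286 ± 0.308 CPM for BL/10 and 39.8 ± 3.49 CPM for NOD.B10. The pooled reads gave a 148-fold higher level in NOD.B10, with an exact 95% interval of 89.7 to 266 that covers counting error only. That ratio rests on the few BL/10 reads: it was 79.7 without BL/10 replicate 1 and 595 (164 to 4915) without BL/10 replicate 2, which leaves 2 reads. The fitted difference was 7.17 on the log2 scale, and 9.10 without BL/10 replicate 2.

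Nlrp1b went the other way, with 53 and 45 reads in BL/10 (1.79 and 1.74 CPM) and 2 and 1 reads in NOD.B10 (0.104 and 0.0392 CPM). The BL/10 libraries are close to each other, and both lie above both NOD.B10 libraries. Pooled reads gave a 26.4-fold lower level (exact 95% interval 8.78 to 130). With 3 NOD.B10 reads in all, the fold was 45.2 without NOD.B10 replicate 1 and 17.1 without NOD.B10 replicate 2. Nlrp1b passed the filter on low counts only through BL/10, the group where it is high, so the filter and the test are not independent. Its values from edgeR's quasi-likelihood test are given as a description: a log2 fold change of -4.61 (-5.35 without NOD.B10 replicate 1) with an SE of 0.84 and an adjusted p of 0.00192.

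Within the pair, reads came mostly from Nlrp1b in BL/10 and almost only from Nlrp1a in NOD.B10. Nlrp1a made up 3.64% of the 55 Nlrp1a and Nlrp1b reads in BL/10 replicate 1 (exact 95% interval 0.443 to 12.5%) and 22.4% of 58 in BL/10 replicate 2 (12.5 to 35.3%). In NOD.B10 it made up 99.7% of 723 reads (99.0 to 99.97%) in replicate 1 and 99.9% of 1081 (99.5 to 99.998%) in replicate 2. The summed level of the pair was 1.86 and 2.25 CPM in BL/10, against 37.5 and 42.3 CPM in NOD.B10, so Nlrp1b's decrease was small in reads beside the difference in Nlrp1a. The pseudogene Nlrp1c-ps, which lies next to Nlrp1b, had 0 and 2 reads in BL/10 and 0 in both NOD.B10 libraries.

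**Figure D1:**
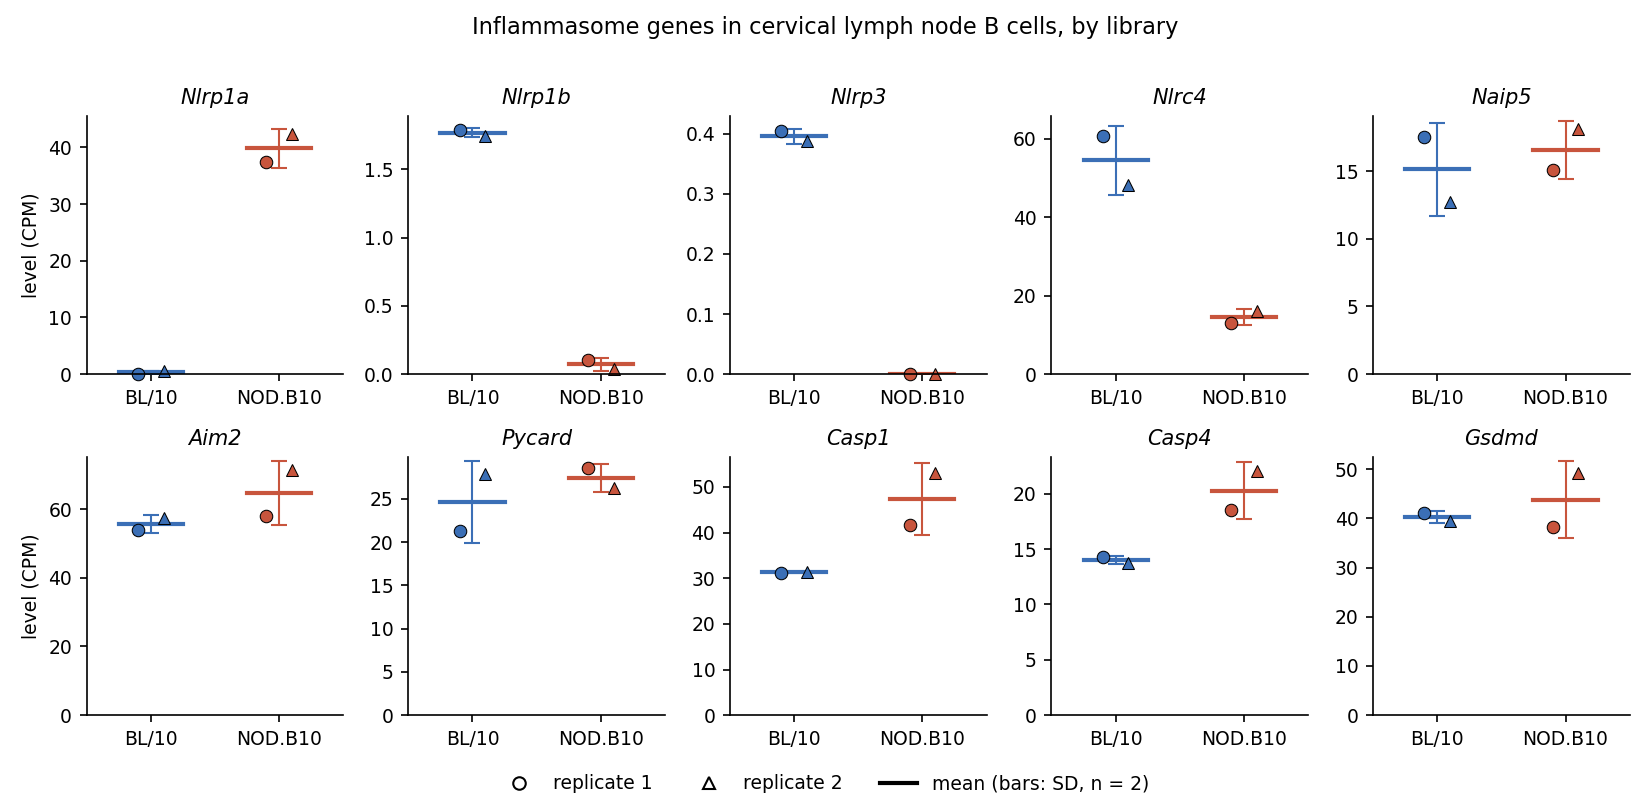
Level in CPM (vertical axes, linear and starting at 0, each with its own scale) of the 10 inflammasome genes in the 2 BL/10 and 2 NOD.B10 libraries, with group means and SD. Nlrp1a sits at 37.4 and 42.3 CPM in NOD.B10 and below 1 CPM in BL/10, Nlrp1b and Nlrp3 are highest in BL/10 at levels below 2 CPM, and Nlrc4 falls from 60.6 and 48.3 to 13.1 and 16.0 CPM.

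Around Nlrp1a the strain difference was not shared by the whole neighbourhood. Within 1000 kb of either end of the gene lie all or part of 89 RefSeq genes, of which 52 were counted and 34 tested. Of those 34, 4 were called (11.8%), of which NOD.B10 was higher at 2 and lower at 2, against 15.2% of all 13075 genes tested (6.55% higher and 8.63% lower). Nlrp1b was the nearest of these. The 30 uncalled genes had log2 fold changes from -0.90 to 1.47.

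The other called neighbours were Scimp, Pld2 and Zmynd15, all farther from Nlrp1a than Nlrp1b is. Scimp, an adaptor of MHC class II signalling, was called higher (11.9 ± 1.37 against 18.9 ± 0.561 CPM, SD, n = 2, adjusted p = 0.0294). Leaving out BL/10 replicate 1, NOD.B10 replicate 1 or NOD.B10 replicate 2 ended that call (0.133, 0.0523 and 0.0802, within 0.0109 to 0.133 over all alternatives). Pld2, a phospholipase D, was called higher (3.24 ± 0.144 against 7.10 ± 1.91 CPM, adjusted p = 0.0265), and the call ended without BL/10 replicate 1, BL/10 replicate 2 or NOD.B10 replicate 2 (0.0603, 0.0855 and 0.172, within 0.00264 to 0.172). Zmynd15 was called lower (1.55 ± 1.04 against 0.175 ± 0.192 CPM, adjusted p = 0.0315). It passed the filter on low counts only through BL/10, the group where it is high. The filter and the test are thus not independent, and the call is given as a description. That call ended without BL/10 replicate 2 or NOD.B10 replicate 2, with limma-voom (0.0676) and with the replicate block (0.0822). The log2 fold change of Zmynd15, -3.21, was -2.26, -5.15 and -2.29 without BL/10 replicate 2, NOD.B10 replicate 1 and NOD.B10 replicate 2. None of these 3 calls held in every alternative.

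**Figure D2:**
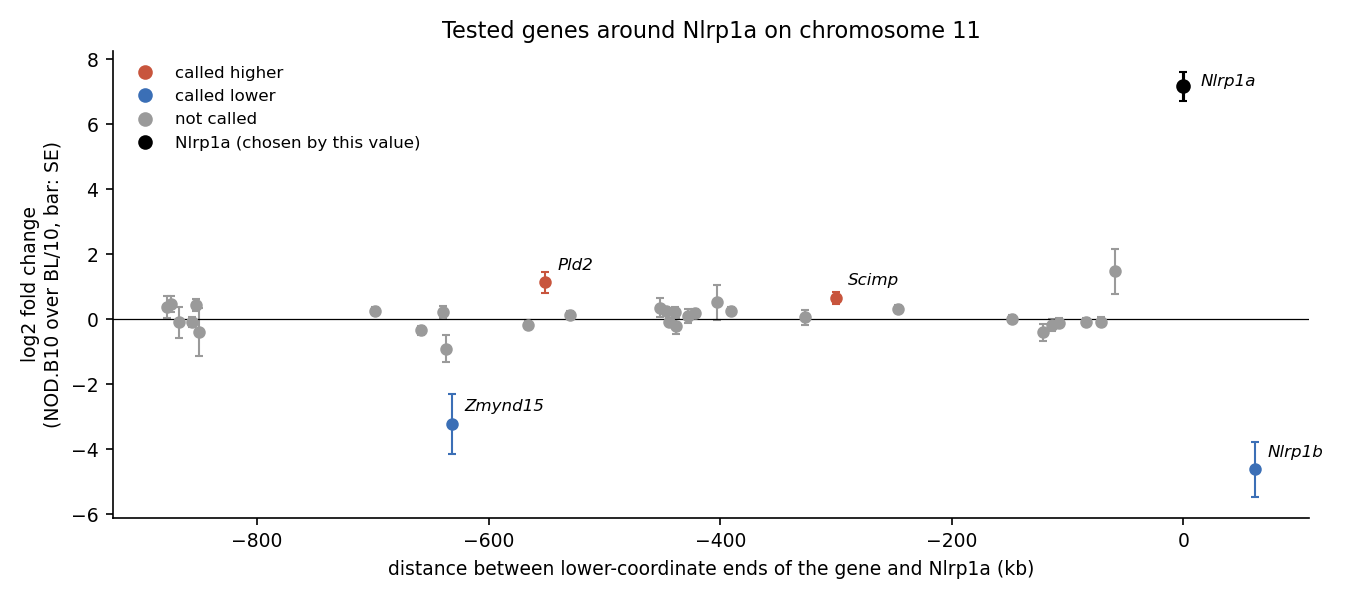
Fitted log2 fold change of NOD.B10 over BL/10 (vertical axis, bars are SE) of each tested gene against the distance between its lower-coordinate end and that of Nlrp1a (horizontal axis, kb). Nlrp1a at 7.17 and Nlrp1b at -4.61 stand away from the uncalled genes, which lie between -0.90 and 1.47.

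The sensor Nlrp3, which responds to many forms of cell stress and ion flux, was barely detected. It had 12 and 10 reads in BL/10 (0.405 and 0.388 CPM) and 0 in both NOD.B10 libraries, too few to pass the filter, so it was not tested. Set against a floor of 3 reads over the NOD.B10 libraries, its level was at least 5.93-fold lower in NOD.B10, and this bound was 3.38 without NOD.B10 replicate 1 and 2.55 without NOD.B10 replicate 2.

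Nlrc4, the signalling partner through which NAIP receptors report bacterial flagellin and secretion system proteins, fell clearly in NOD.B10. It had 1796 and 1247 reads in BL/10 (60.6 and 48.3 CPM) and 252 and 408 in NOD.B10 (13.1 and 16.0 CPM). Every BL/10 library lay above every NOD.B10 library. The mean fell from 54.5 ± 8.71 to 14.5 ± 2.06 CPM (SD, n = 2), a 3.75-fold lower level (log2 fold change of -1.90 with an SE of 0.17, adjusted p = 4.76e-06), and it was called under every alternative run (adjusted p at most 0.000138). The marker sums of T cells, macrophages, neutrophils and dendritic cells were also lower in NOD.B10, while Adgre1, Camp and Zbtb46 had the opposite sign. The part of such cells in the Nlrc4 difference was not tested.

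None of the 4 NAIP genes, whose products work through Nlrc4, was called lower. Naip5, a flagellin receptor, had 17.6 and 12.7 CPM in BL/10, against 15.1 and 18.1 CPM in NOD.B10. These values overlap and the gene was not called (log2 fold change of 0.13 with an SE of 0.21, adjusted p = 0.758). Its chromosome 13 neighbours Naip2, a receptor of secretion system rod proteins, and Naip6, another flagellin receptor, rose. Naip2 was at 27.1 and 24.1 CPM in BL/10, against 44.9 and 44.0 CPM in NOD.B10 (log2 fold change of 0.80 with an SE of 0.14, adjusted p = 0.00187). Naip6 was at 2.43 and 3.14 CPM against 9.69 and 10.3 CPM (log2 fold change of 1.84 with an SE of 0.29, adjusted p = 0.000615). For both genes the NOD.B10 libraries lay above the BL/10 libraries with a gap wider than the spread within either group.

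Naip1, a receptor of secretion needle proteins, is named here after its values were seen. It was at 0.540 and 0.194 CPM in BL/10, against 2.12 and 2.11 CPM in NOD.B10 (log2 fold change 2.49, adjusted p = 0.0174). It passed the filter on low counts through NOD.B10, the group where it is high, and would not have passed through BL/10 alone. For that reason it is given as a description. Its log2 fold change was 3.42 without BL/10 replicate 1, and its call ended without BL/10 replicate 2 (0.116, within 0.00205 to 0.116 over all alternatives). The 4 NAIP genes together summed to 47.6 and 40.1 CPM in BL/10 and to 71.8 and 74.4 CPM in NOD.B10. Naip5 took 36.9 and 31.7% of those reads in BL/10 and 21.0 and 24.3% in NOD.B10. The NAIP transcripts share long identical stretches: 22.3% of the stretches of 50 bases in Naip5-201 also occur in Naip6, with a longest run of 229 bases, so the division of reads among the 4 genes is uncertain.

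**Figure D3:**
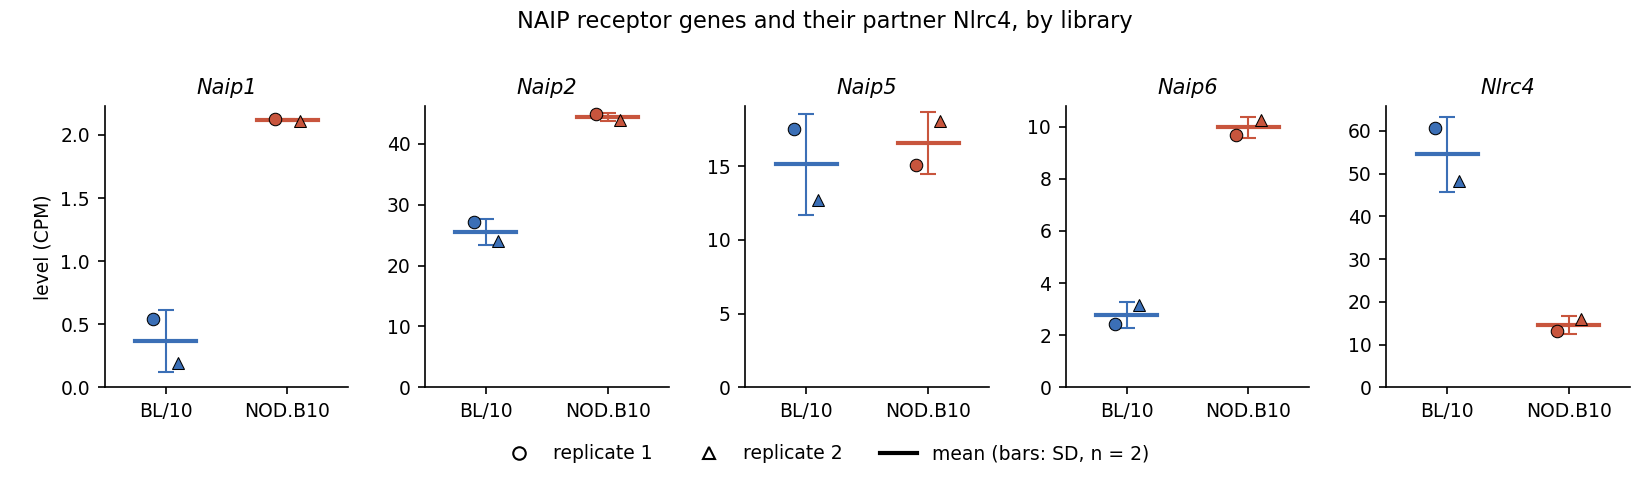
Level in CPM (vertical axes, linear and starting at 0, each with its own scale) of Naip1, Naip2, Naip5, Naip6 and Nlrc4 in each library, with group means and SD. Naip1, Naip2 and Naip6 are higher in both NOD.B10 libraries, Naip5 overlaps between the strains, and Nlrc4 is lower in both NOD.B10 libraries.

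Aim2, the sensor of double-stranded DNA in the cytosol, was among the highest members in both strains. It stood at 53.9 and 57.4 CPM in BL/10, against 58.1 and 71.3 CPM in NOD.B10. The groups nearly touch without overlapping, and the gene was not called (log2 fold change of 0.22 with an SE of 0.13, adjusted p = 0.333).

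Pycard, whose product ASC links most sensors to caspase-1, had 21.2 and 27.9 CPM in BL/10, against 28.5 and 26.3 CPM in NOD.B10. The values overlap and the gene was not called (log2 fold change of 0.16 with an SE of 0.17, adjusted p = 0.633). In GENCODE vM21, 485 of its 3800 exonic bases are overlapped on the opposite strand by the unconfirmed model Gm45205, and since the strand setting of the counting is not known, its count could hold reads of both.

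Casp1, the protease of the canonical inflammasome, rose modestly in NOD.B10. It had 31.1 and 31.4 CPM in BL/10, against 41.8 and 52.9 CPM in NOD.B10. Both NOD.B10 libraries lay above both BL/10 libraries, although they differ from each other. The mean went from 31.3 ± 0.182 to 47.3 ± 7.90 CPM (SD, n = 2), a 1.51-fold higher level (log2 fold change of 0.60 with an SE of 0.15, adjusted p = 0.0139). That call depended on NOD.B10 replicate 2: without it the adjusted p was 0.172, within 0.000684 to 0.172 over all alternatives.

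Casp4, the gene of mouse caspase-11, which binds bacterial lipopolysaccharide directly, lies next to Casp1 on chromosome 9. Its levels were 14.2 and 13.8 CPM in BL/10, against 18.5 and 22.1 CPM in NOD.B10. The groups did not overlap, but the gene was not called (log2 fold change of 0.54 with an SE of 0.18, adjusted p = 0.0676). With no filter on low counts it was called (0.0458, within 0.0458 to 0.333 over all alternatives). The Casp1 and Casp4 transcripts share no identical stretch longer than 12 bases.

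Gsdmd, the pore that caspase-1 and caspase-11 open, had 41.1 and 39.5 CPM in BL/10, against 38.2 and 49.3 CPM in NOD.B10. Those values overlap, with no call (log2 fold change of 0.12 with an SE of 0.15, adjusted p = 0.672).

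Of the 9 members listed by function, 8 were tested, of which 1 was called higher (Casp1), 2 lower (Nlrc4, and Nlrp1b with the limit above) and 5 not called. The median log2 fold change of the 8 was 0.14, beside -0.0032 over all genes tested. Across all genes tested, 15.2% were called in either direction.

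Per length, the rank order of the members differed between the strains mainly at Nlrp1a and Nlrc4. In BL/10 the mean CPM per kilobase of gene length ran from Gsdmd (22.7), Aim2 (21.9) and Casp1 (20.7) through Nlrc4 (14.2), Pycard (11.5) and Casp4 (9.78) to Naip5 (2.86), Nlrp1b (0.288), Nlrp3 (0.0986) and Nlrp1a (0.0594). Overlapping neighbours in that order were Gsdmd with Aim2, Nlrc4 with Pycard, Pycard with Casp4, and Nlrp3 with Nlrp1a. In NOD.B10 the order was Casp1 (31.3), Aim2 (25.5), Gsdmd (24.7), Casp4 (14.2), Pycard (12.8), Nlrp1a (8.29), Nlrc4 (3.78), Naip5 (3.13), Nlrp1b (0.0116) and Nlrp3 (0). There Casp1 overlapped Aim2, Aim2 overlapped Gsdmd, Casp4 overlapped Pycard, and Nlrc4 overlapped Naip5. Nlrp1a thus moved from the last place to the sixth, and Nlrc4 from the fourth to the seventh.

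Among 16 other sensors and NLR genes, 10 were tested. Of those, 4 were called higher (Nod2, Naip6, Naip2 and Naip1) and 2 lower (Nod1 and Mefv), against 6.55% and 8.63% of all genes tested. Naip1 and Mefv passed the filter only through the strain where each is high, so their calls are a description. The median log2 fold change was 0.16 with both in it, so it is a description too. Nlrp2, Nlrp6, Nlrp9b and Nlrp14 had 0 reads in all 4 libraries. Nod2, the receptor of muramyl dipeptide from bacterial cell walls, rose from 6.69 and 6.24 CPM to 29.8 and 29.7 CPM (log2 fold change of 2.20 with an SE of 0.18, adjusted p = 2.56e-06). Nod1, which senses a different cell wall peptide, fell from 50.7 and 35.3 CPM to 21.5 and 19.7 CPM (log2 fold change of -1.06 with an SE of 0.18, adjusted p = 0.0017). Both pairs of groups were separate, so these related receptors moved in opposite directions.

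Mefv, the gene of the inflammasome sensor pyrin, had 16 and 15 reads in BL/10 and 0 in both NOD.B10 libraries. It passed the filter only through BL/10, the strain where it is high, so its call as lower (adjusted p = 0.0162) is given as a description. Its level was at least 8.36-fold lower against the floor of 3 reads. That bound was 4.76 without NOD.B10 replicate 1 and 3.60 without NOD.B10 replicate 2. Leaving out any 1 library ended the call, with an adjusted p of 0.0782 without BL/10 replicate 1, 0.093 without BL/10 replicate 2, 0.0504 without NOD.B10 replicate 1 and 0.0665 without NOD.B10 replicate 2, within 0.00848 to 0.093 over all alternatives. Nlrp12 had 4 and 5 reads in BL/10 and 0 in both NOD.B10 libraries and was not tested. Mefv is known from neutrophils and monocytes, whose marker sums were lower in NOD.B10, while Camp and Adgre1 had the opposite sign. Whether this bears on Mefv was not tested.

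Of 17 genes for inflammasome outputs and cell death effectors, 14 were tested and 1 was called, against 15.2% of all genes tested. It was Il18bp, which encodes a secreted inhibitor of interleukin-18. It was at 9.22 and 11.3 CPM in BL/10, against 20.5 and 15.3 CPM in NOD.B10 (log2 fold change of 0.80 with an SE of 0.22, adjusted p = 0.023). Leaving out BL/10 replicate 1 or NOD.B10 replicate 1 ended its call (0.086 and 0.186, within 0.00172 to 0.186). The list's median log2 fold change was -0.29. Il1b, Il1rn, Gsdme and Mlkl are among the 14, with log2 fold changes of -1.43, -1.60, -1.78 and -1.14. They passed the filter on low counts only through BL/10, the group where they are higher. The median holds them and is therefore a description. The cytokine genes were low, and none of them was called. Il1b had 23 and 12 reads in BL/10 and 6 and 4 in NOD.B10. By the limit on the filter just given, its adjusted p of 0.308 is a description. Il18 was at 3.61 and 2.52 CPM against 3.01 and 2.90 CPM (adjusted p = 0.948). Il1b and Il18 are named for their role, after their values were seen.

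All 30 regulators listed were tested, of which 2 were called higher and 5 lower, against 6.55% and 8.63% of all genes tested, with a median log2 fold change of -0.01. Pydc4 and Pydc3, which encode pyrin domain proteins of the interferon-inducible IFI200 family, had the lowest log2 fold changes of the list. Pydc3 fell from 132 and 135 CPM to 16.7 and 14.3 CPM (log2 fold change of -3.11 with an SE of 0.13, adjusted p = 7.75e-09). Pydc4 fell from 41.2 and 40.0 CPM to 2.23 and 2.90 CPM (log2 fold change of -3.97 with an SE of 0.20, adjusted p = 2.75e-08). The groups are widely separate for both genes, while the libraries within a group are close.

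Gbp3, a guanylate-binding protein gene, fell from 51.1 and 43.8 CPM to 24.7 and 26.4 CPM (log2 fold change -0.89, adjusted p = 0.000867). Txnip, whose product binds thioredoxin and NLRP3, fell from 829 and 641 CPM to 490 and 520 CPM (log2 fold change -0.54, adjusted p = 0.0103). Birc3, a ubiquitin ligase of the IAP family, rose from 239 and 250 CPM to 336 and 329 CPM (log2 fold change 0.44, adjusted p = 0.00894), a call that ended without NOD.B10 replicate 1 (0.0734, within 0.00104 to 0.0734). The remaining 2 calls, Cgas (higher, adjusted p = 0.0307) and Irgb10 (lower, adjusted p = 0.0347), were named after their values were seen, and each ended in 3 of the 4 fits that leave out 1 library. For Cgas these were the fits without BL/10 replicate 1, BL/10 replicate 2 and NOD.B10 replicate 2 (0.107, 0.0629 and 0.202, within 0.00345 to 0.202). For Irgb10 they were those without BL/10 replicate 2, NOD.B10 replicate 1 and NOD.B10 replicate 2 (0.0996, 0.161 and 0.0774, within 0.0162 to 0.161).

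The inhibitors most closely tied to NLRP1 showed no call. Dpp9 was at 90.2 ± 0.0107 CPM in BL/10, against 82.0 ± 5.06 CPM in NOD.B10 (SD, n = 2, adjusted p = 0.511). Dpp8 was at 192 ± 11.3 and 193 ± 11.9 CPM (adjusted p = 0.99). Srebf1, whose product binds sterol response elements, was at 125 ± 0.302 and 122 ± 2.51 CPM (adjusted p = 0.887). Over the 3 lists together, 54 of 63 genes were tested, 7 called higher and 7 lower, while 15.2% of all genes tested were called. Naip1, Mefv, Il1b, Il1rn, Gsdme and Mlkl are in these counts, and in the median that follows, with the limits given above. The median log2 fold change was -0.03.

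**Figure D4:**
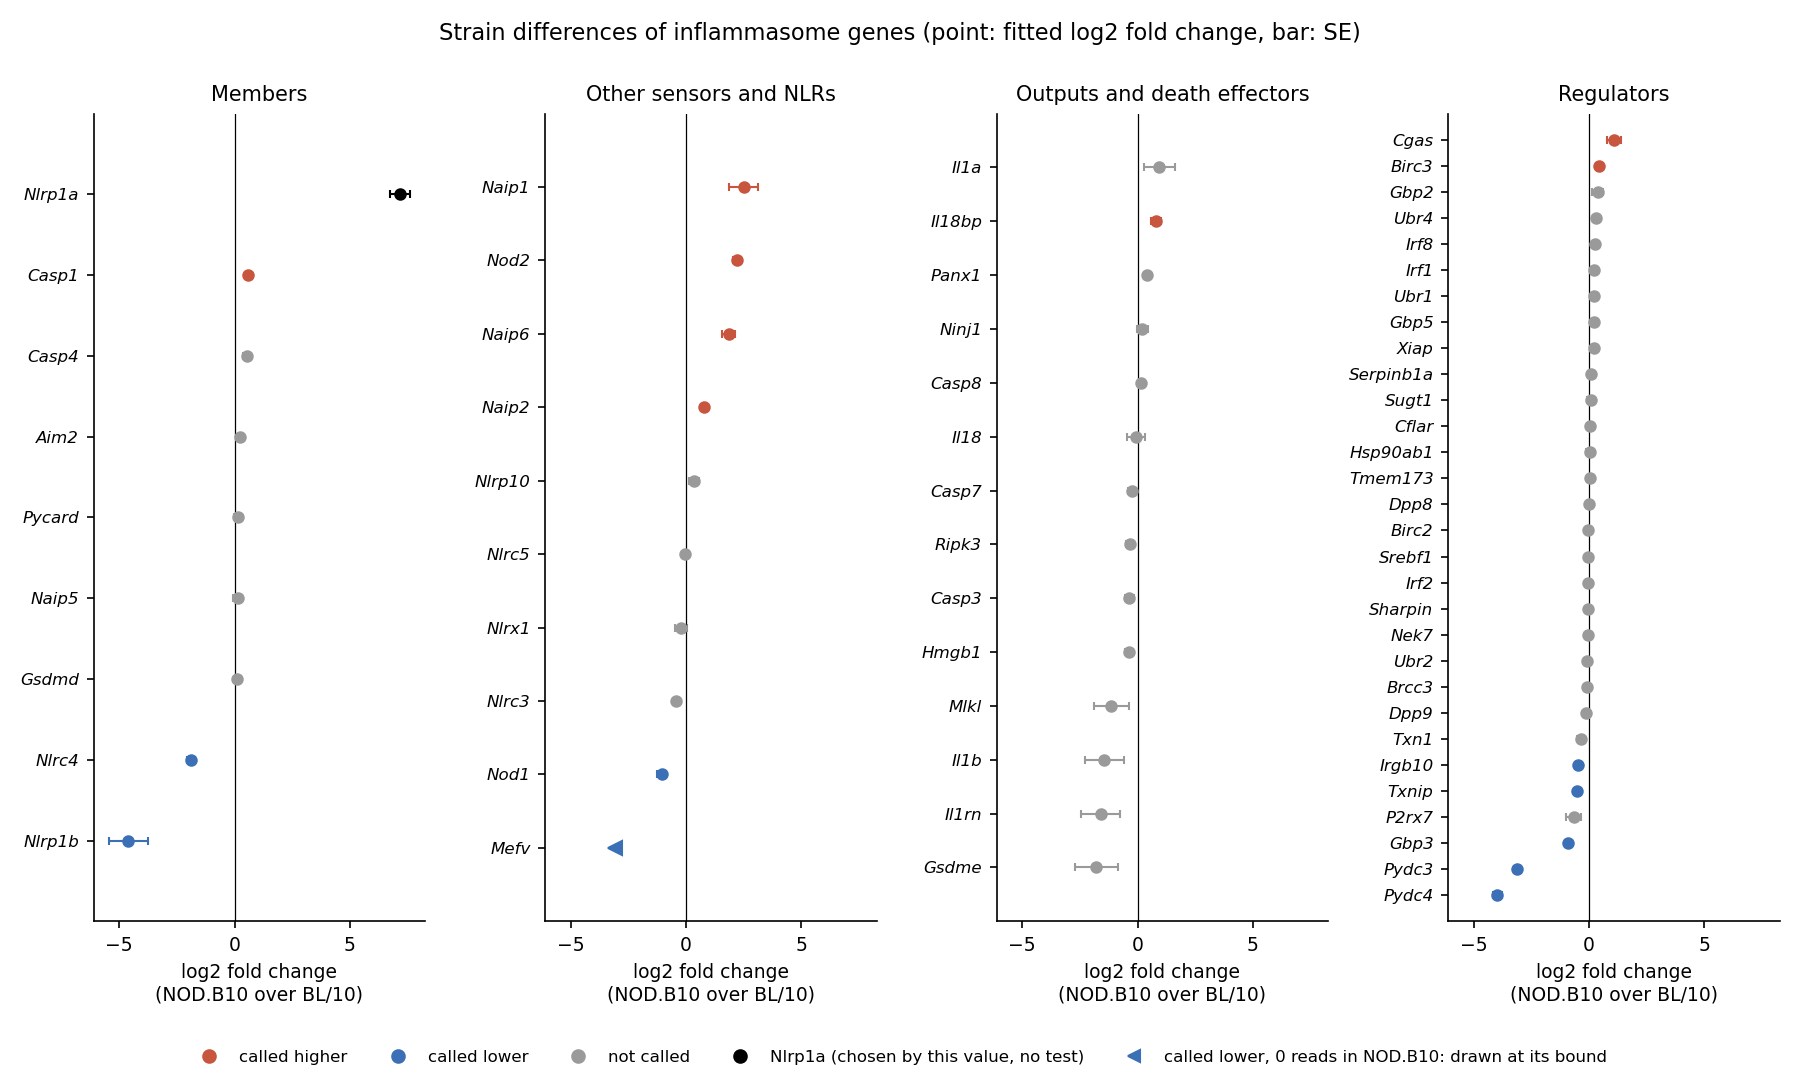
Fitted log2 fold change of NOD.B10 over BL/10 (horizontal axes, bars are SE) of the tested members and of the tested genes of the 3 other lists, coloured by call. Nlrp1a (7.17) is farthest to the right and Nlrp1b (-4.61) farthest to the left, Mefv is drawn at its bound because it had 0 reads in NOD.B10, and most regulators lie near 0.

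Neighbours of the other members were looked at within 100 kb. The genes tested numbered 6 near Nlrp3, 4 near Nlrc4, 8 near Pycard, 7 near Gsdmd and 1 near Aim2. Near Naip5 there were 3, Naip2 and Naip6 among them. Besides the members themselves and the NAIP genes, 3 neighbours were called, all higher. Across all genes tested, 15.2% were called, with 6.55% higher. Snap47, near Nlrp3, had a log2 fold change of 0.68 (adjusted p = 0.0188), and the call ended without BL/10 replicate 2 or NOD.B10 replicate 1 (0.0766 and 0.0777, within 0.00456 to 0.0777). Birc6, near Nlrc4, had a log2 fold change of 0.34 (adjusted p = 0.038), and its call ended without BL/10 replicate 2 or NOD.B10 replicate 1 (0.063 and 0.407), with non-robust dispersion (0.0501) and with the replicate block (0.0562), within 0.00693 to 0.407. Prss53, near Pycard, had a log2 fold change of 0.76 (adjusted p = 0.0289), and its call ended without BL/10 replicate 1 or NOD.B10 replicate 1 (0.126 and 0.157, within 0.00745 to 0.157). No neighbour of Nlrc4 was called lower.

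The genes whose pattern over the 4 libraries was most like that of Nlrp1a were found among 8487 genes whose average log2 CPM reached 3 or more, by the root mean square difference of centred log2 CPM. They were Lrrc63 (1.08, a leucine-rich repeat gene on chromosome 14), Rprl3 (1.45, a noncoding RNA gene on chromosome 8), Alpk1 (1.5, a kinase on chromosome 3 that senses bacterial sugar nucleotides), Pianp (1.53, chromosome 6) and Cpne4 (1.57, a copine on chromosome 9). Rprl3 had 0 and 1 reads in BL/10 and 2353 and 1007 in NOD.B10, which differ widely from each other, and the main fit did not call it. That is a description, as Rprl3 was chosen by its pattern and passed the filter only through NOD.B10. Lrrc63 and Cpne4 also passed the filter only through NOD.B10. Lrrc63 had 9 and 17 reads in BL/10 and 480 and 372 in NOD.B10. Alpk1 had 28 and 37 reads in BL/10 and 453 and 616 in NOD.B10. Cpne4 had 0 reads in both BL/10 libraries and 1526 and 1829 in NOD.B10. None of the 5 lies on the chromosome of Nlrp1a. The likeness rests on 4 libraries that all these genes share, and it is given with no test.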

How the data were processed

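RNA of cervical lymph node B cells was sequenced in 2 BL/10 and 2 NOD.B10 libraries. The authors deposited whole-number read counts per gene symbol, with no normalisation, and a gene length. Per the submitters' processing notes, the build was mm10 and the tools were featureCounts, Subread 1.6.5, SAMtools 1.3 and HISAT2 2.1.0. The annotation, strand setting and handling of multiply aligned reads are not given in the sources used here, and how sequence differences of either strain from mm10 affected alignment was not tested.

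From the counts, edgeR 4.0.16 (R 4.3.3) was run with TMM scaling, filterByExpr (minimum count 10, minimum total 15), the robust quasi-likelihood test (two-sided) and Benjamini-Hochberg adjustment over all 13075 genes tested, called below 0.05, and tested on simulated data. Of these, 1986 were called. CPM uses TMM-scaled library sizes, and length is the deposited one. With 19328803 to 29372751 reads per library, 3 reads served as the floor where a group had 0. Intervals are exact, at 95%, and cover counting error only.

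Groups came from the sample labels. Replicate numbers did not pair the libraries (correlation of deviations -0.02), so the main comparison has no block. Alternatives were RLE and upper-quartile factors, no filter, a stricter filter, DESeq2 1.42.0, limma-voom (limma 3.58.1), non-robust dispersion, a replicate block, and leaving out each library. A fit without 1 library assumes that the lone library varies like the other group.

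The members and lists were chosen with earlier results of these data known. Named were all members, called genes within 1000 kb of Nlrp1a or 100 kb of another member (up to 4 per locus), up to 5 called genes per list by smallest adjusted p, and the 5 genes most like Nlrp1a, with exceptions stated. Symbols were matched to RefSeq GRCm38.p6, as were all 10 members. Upstream stretches were aligned with Biopython 1.88. Motifs were searched on both strands in the 250 bases before each start. Protein sequences were not used here.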

Additional observations from a re-analysis of the deposited data

How the results depend on the processing

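The count of called genes was 1986, and 1830 to 2584 over other scalings, filters, tests and dispersion settings, 1756 to 2074 without 1 library and 1802 with the replicate block. Genes called higher numbered 857 (586 to 960 without 1 library, 760 with the replicate block) and genes called lower 1129 (1009 to 1228 and 1042). Without NOD.B10 replicate 1 the split was 586 higher and 1228 lower. Of the members listed by function 3 were called, 2 without NOD.B10 replicate 2, 4 with no filter and 3 with the replicate block. Of the 63 other pathway genes 14 were called, 11 to 14 without 1 library and 15 with the replicate block. Replicate numbers are shared by the labels only. The replicate block ended the calls of Zmynd15 and Birc6 among the genes named. Of 406 alternative values for 34 named genes, 365 stayed the same, 33 (13 genes) lost a call and 7 gained one. The remaining 1, Nlrp1a without BL/10 replicate 2, moved beyond the replicate spread. The same means the same side of the threshold. For Nlrp1a, which has no test, it means a log2 fold change within the replicate spread. Of those 365, 361 also kept direction, and the other 4, of Gsdmd, Naip5 and Pycard, changed sign without a call. No called value changed sign. The gained calls were those of Casp4 and Rprl3. Rprl3 and the other genes most like Nlrp1a were chosen by their pattern, so their values here are a description. Nlrp1b, Naip1, Mefv and Zmynd15 are counted with the limit on the filter given above. RLE and upper-quartile scaling moved the median log2 fold change of all genes by -0.01 and 0.01. Depth limits Nlrp1a in BL/10 (15 reads), Nlrp1b in NOD.B10 (3 reads) and Nlrp3 (22 reads in all).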
